A study of Rattus norvegicus with 6 samples.

Results

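The connexins of the early heart are described here in the heart primordium of the rat at E10, before and after it starts to beat. The 6 genes are Gja1, Gja4, Gja5, Gjc1, Gjb1 and Gjb2, and they were found by their names among the probes of the array, other than controls. Each gene had 1 probe, so that 6 of 30367 probes and 28 of 58717 spots belonged to them. Of the 6 genes, 5 carried the current name on the array, and Gjc1 was found through its transcript, since the array calls it by the older name Gja7. The pre-heartbeat group held 3 samples of heart primordia with a flat central shape, and the post-heartbeat group held 3 samples of primordia with a raised central shape from embryos slightly further in somite formation. All came from Wister rat embryos at E10, spelled as in the labels, without treatment or genetic change, and each sample was measured on 1 array. The sources used here do not say whether primordia were pooled for a sample, so that the p-values measure the spread between these samples. The primordium was taken whole, and with RNA of a whole tissue, fewer cells of a type and less RNA per cell cannot be told apart.

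Connexins are membrane proteins that assemble into hexamers, and hexamers of neighboring cells dock to form gap junction channels, through which ions and small molecules pass from cell to cell. In the heart these channels carry the electrical impulse between cardiomyocytes. Gja1 encodes Cx43, the main connexin of working ventricular muscle and of many other embryonic tissues. Gja5 encodes Cx40, of atrial muscle, the fast conduction system and arterial endothelium, and Gjc1 encodes Cx45, a connexin of the early heart tube and of nodal cells. Gja4 encodes Cx37, an endothelial and endocardial connexin, whereas Gjb1 (Cx32) and Gjb2 (Cx26) are best known from liver, nerve, inner ear and epithelia.

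Values are log2 signals relative to the 75th percentile of the same array, so that a difference of 1 is a change of 2 fold. The tests took in 19299 probes, each of them well above background throughout 1 group or both, and among them were the probes of 5 of the 6 connexins. On each array, 39375 to 41327 spots were well above background. The arrays lay on 2 slides, slide 1 with the first pre-heartbeat array and the first and second post-heartbeat arrays, and slide 2 with the other arrays. The slides differed strongly. They were separated by the leading principal component (60.3% of variance), and 3537 of the tested probes differed between slides at a limma adjusted p under 0.05. For this reason each tested connexin is given with the slide as a block and within each slide as well. As a check of the labeled tissue, all 12 markers of cardiac muscle were well above background on all 6 arrays. Their mean level ranged from 2.96 to 3.42 before and from 4.03 to 4.10 after the heartbeat started.

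The probe of a gene fixes which part of its transcript was measured, and the opening 30 of the 60 bases of each connexin probe are shown 5′ to 3′ for this reason.
Gja1 probe: acaaaaacaaaactcatcacagatgattga
Gja4 probe: gccttagtgatgaccaaaggacactggctt
Gja5 probe: cttcgatggtgaggtttttcagaagagaaa
Gjc1 probe: atccagtacactgagttgtccaatgctaag
Gjb1 probe: acccccttcacctggaagaggtaaagaggc
Gjb2 probe: caacaggggacacttcttcctgccaagaat
In the annotation of the array on the rn4 genome, the Gja1 probe lies at chr20:35422026-35422085 on the plus strand, the Gja4 probe at chr5:146755345-146755404 on the minus strand and the Gja5 probe at chr2:191843785-191843844 on the plus strand. The Gjb1 probe lies at chrX:89455686-89455745 on the plus strand and the Gjb2 probe at chr15:36153667-36153726 on the minus strand. The Gjc1 probe has no position in that annotation. Probes for Gja1 and Gjb2 were printed in 10 spots on each array and those for the other connexins in 2 spots. Whether a probe lies in coding sequence or in an untranslated region was not analysed here.

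Gja1, the gene of the main ventricular gap junction protein, had lower values after the heartbeat had started. The difference passed the limma threshold only with the slide as a block. The log2 signal of Gja1 was 2.23, 2.21 and 2.04 on pre-heartbeat arrays 1, 2 and 3. It was 1.41, 1.30 and 1.32 on the post-heartbeat arrays. All post-heartbeat arrays lay below all pre-heartbeat arrays, as did 6.14% of the tested probes. The group means were 2.16 ± 0.10 and 1.34 ± 0.056 (SD, n = 3), and the log2 difference was -0.81 (SE 0.13), a level 1.76-fold lower with a 95% interval of 1.41 to 2.19. The limma adjusted p over all tested probes was 0.0999, above the threshold of 0.05 that 0.0207% of the probes passed in this direction. With the slide as a block the difference was -0.84 and the limma adjusted p was 0.0284, and 0.461% of the probes passed in this direction. Gja1 was also in the selection by the methods of the study, which asks for at least 1.5 fold with a Tukey HSD p below 0.05. The study applied it to higher genes, and here it was used in both directions without adjustment of p. It held 1.15% of the tested probes as lower. The difference was -0.87 on slide 1 and -0.81 on slide 2. An exact two-sided permutation test gave p = 0.1, the smallest that 3 arrays against 3 allow.

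The spots of the Gja1 probe agreed well within an array. The mean of its 10 spots was 7930, 5299 and 6089 intensity units before normalization on the pre-heartbeat arrays. It was 3368, 3491 and 4251 units on the post-heartbeat arrays. The SD between spots of an array was between 0.0536 and 0.0929 on the log2 scale. This is the precision of a single array and says nothing of the spread between samples. Leaving out each array in turn, the difference was between -0.87 and -0.78, and the limma adjusted p was between 0.181 and 0.508.

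Levels of cell type markers are given beside that of Gja1. Of the 12 cardiac muscle markers, 8 were in the selection of the methods as higher, a direction that held 1.89% of the tested probes. Among them 1, Nppa, an atrial natriuretic peptide precursor, passed limma (log2 difference 1.84, limma adjusted p = 0.0199), as did 0.119% of the tested probes as higher. Of 7 tested markers of neural and surface ectoderm, 1 passed limma as lower, as did 0.0207% of the tested probes. It was Otx2, a regulator of forebrain and head ectoderm (log2 difference -1.56, limma adjusted p = 0.0199). The mean level of this ectodermal list ranged from -2.12 to -0.98 before and from -2.35 to -1.93 after the heartbeat started. Of the ectodermal markers on the array, Hes5 was not well above background on any array. The mean level of 11 endothelial and endocardial markers ranged from -0.47 to -0.40 before and from -0.63 to -0.47 after. With the slide as a block, 6 of the cardiac muscle markers passed as higher, as did 1.16% of the tested probes. In that fit 1 endothelial marker, Cldn5, a tight junction protein, passed as lower (log2 difference -0.93, limma adjusted p = 0.0425), beside 0.461% of the tested probes. The endothelial markers went in both directions, from this value to 0.48 for Plvap, with a median of -0.11. The mean level of the erythroid markers ranged from -3.23 to -2.84 before and from -2.76 to -2.46 after the heartbeat started. Of the 7 tested, 3 were in the selection as higher, and with the slide as a block 2 passed as higher, beside 1.16% of the tested probes. Hbg1, in both counts, was well above background on 2 pre-heartbeat and 3 post-heartbeat arrays. The higher group alone brought it into the tests, so that its calls are no support of a difference. Differences were positive for 5 of the 7, while Klf1 (-0.25) and Alas2 (-0.61) went the other way. Hbe1 and Gata1 were not well above background on any array. The part of these lists in the difference of Gja1 was not tested.

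**Figure D1:**
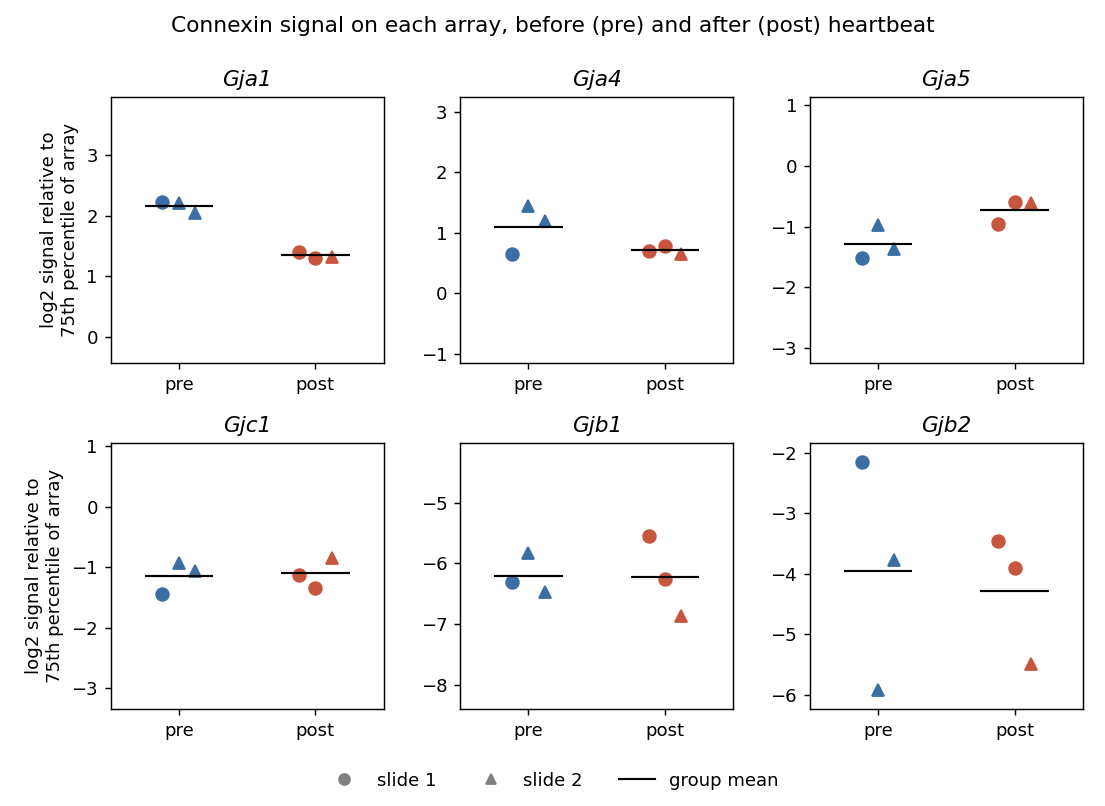
Log2 signal of each connexin against its array's 75th percentile (vertical axis, each panel spanning the same range of log2 units) in the pre-heartbeat and post-heartbeat groups. Each point is 1 array, its shape gives the slide and the line is the group mean. Gja1 and Gja5 are the connexins whose groups do not overlap, in opposite directions, and the Gjb2 arrays scatter over several log2 units in both groups.

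Gja5, the gene of the atrial and conduction connexin Cx40, had higher values after the heartbeat had started, but the difference did not pass the test. Its log2 signal was -1.52, -0.98 and -1.36 on pre-heartbeat arrays 1, 2 and 3. It was -0.96, -0.59 and -0.61 on the post-heartbeat arrays. The post-heartbeat arrays all lay above the pre-heartbeat arrays, as for 5.38% of the tested probes, but the highest pre-heartbeat array and the lowest post-heartbeat array nearly touched. The means were -1.29 ± 0.28 and -0.72 ± 0.20 (SD, n = 3). The log2 difference was 0.57 (SE 0.19), a ratio of 1.48 with a 95% interval of 1.08 to 2.04. The limma adjusted p was 0.528, and 0.156 with the slide as a block, with a difference of 0.65. By the methods' Tukey HSD comparison, a pooled and not an exact one, the unadjusted p was 0.0473, and the ratio lay just under the 1.5 fold of that selection. The difference was 0.75 on slide 1 and 0.56 on slide 2, and it was between 0.45 and 0.72 when each array was left out in turn. The exact permutation test gave p = 0.1.

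Since Gja1 and Gja5 were the connexins whose groups did not overlap, the 250 bases before their start sites are shown from RefSeq on the GRCr8 build, 5′ to 3′ on the strand of the gene, at chr20:36302314-36302563 for Gja1 and chr2:187290977-187291226 for Gja5, both on the plus strand. Capitals mark matches to the letters searched.
Gja1 promoter: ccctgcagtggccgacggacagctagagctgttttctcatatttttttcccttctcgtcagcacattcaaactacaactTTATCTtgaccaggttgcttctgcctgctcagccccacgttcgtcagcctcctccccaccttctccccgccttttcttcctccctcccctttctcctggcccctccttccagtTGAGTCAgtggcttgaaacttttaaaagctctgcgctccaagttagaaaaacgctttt
Gja5 promoter: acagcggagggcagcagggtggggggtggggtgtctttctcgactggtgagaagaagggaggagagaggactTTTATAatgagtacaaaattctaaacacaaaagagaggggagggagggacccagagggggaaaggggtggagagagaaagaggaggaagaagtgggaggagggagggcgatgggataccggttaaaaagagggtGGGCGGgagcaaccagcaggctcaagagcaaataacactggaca
Promoters of 5 of the 6 connexins were in the RefSeq table, all but that of Gjc1. The letters were searched on both strands in 300 bases, which reach 50 bases past the start site, and none of the matches in these promoters overlapped. The AP-1 letters TGAGTCA were found in 1 of the 5 promoters, that of Gja1, at -58 from the start site, and in 4.63% of 33469 promoters. The GATA letters AGATAA were found in that of Gja1 alone, read on the opposite strand at -171, and in 11.6% of all promoters. Gja5 held the GC box letters GGGCGG at -44 and again at 37 bases past the start, and 3 of the 5 connexins and 33.1% of all promoters held them. The TATA letters TATAAA were read on the opposite strand of Gja5 at -178 and were found in 14.2% of all promoters. The T-box letters GGTGTGA, present in 3.83% of all promoters, and the NKX2-5 letters TNAAGTG, present in 11.5%, were not in these windows for any of the 5 connexins. A match of this kind describes the letters and is not a measured site.

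The endothelial connexin Gja4 and the early heart tube connexin Gjc1 showed no difference that passed the test. Gja4 was at 0.66, 1.44 and 1.19 on the pre-heartbeat arrays and at 0.70, 0.78 and 0.66 on the post-heartbeat arrays. The groups overlapped through the first pre-heartbeat array, which was as low as the post-heartbeat arrays. The log2 difference of Gja4 was -0.39 (SE 0.21), with a 95% interval of -0.89 to 0.12 and a limma adjusted p of 0.866. The value with the slide as a block was -0.29. It was -0.61 without the first pre-heartbeat array and -0.21 without the second. On slide 1 it was 0.081 and on slide 2 it was -0.66, so the direction was not shared by the slides. Gjc1 was at -1.45, -0.92 and -1.06 on the pre-heartbeat arrays and at -1.12, -1.34 and -0.85 on the post-heartbeat arrays. The groups of Gjc1 overlapped. Its log2 difference was 0.041 (SE 0.20), with a 95% interval of -0.44 to 0.52 and a limma adjusted p of 0.958. A slide block gave 0.18, and the difference was 0.22 on slide 1 and 0.14 on slide 2. A miss of the threshold does not show that the level of either gene stayed the same. Without the first pre-heartbeat array the difference of Gjc1 was -0.11, and without post-heartbeat array 3 it was -0.087.

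**Figure D2:**
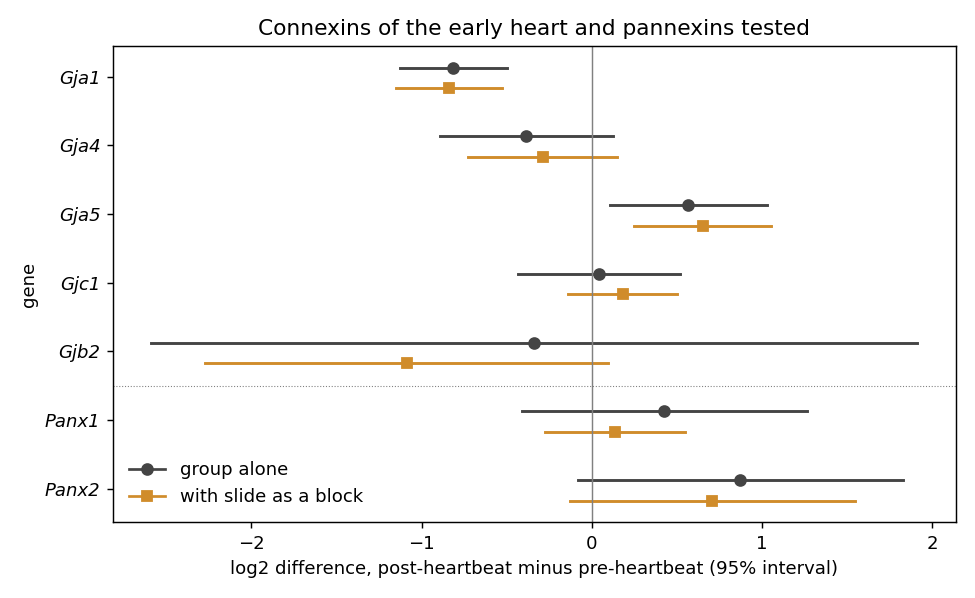
Log2 difference of post-heartbeat minus pre-heartbeat (horizontal axis) with its 95% interval for the connexins of the early heart and the pannexins tested, with the group alone (grey circles) and with the slide as a block (orange squares). The interval of Gja1 lies furthest from 0 among them, and that of Gjb2 is the widest with the group alone.

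The balance between connexins was compared within arrays, where any factor that scales a whole array cancels. The log2 ratio of each connexin to Gja1 was centered on its mean over the 6 arrays, because levels of different probes cannot be set against each other. The ratio of Gja5 to Gja1 measured -0.995, -0.43 and -0.65 on pre-heartbeat arrays 1 to 3, and 0.39, 0.86 and 0.82 on post-heartbeat arrays 1 to 3. It was thus higher on each post-heartbeat array than on any pre-heartbeat array, with a difference of 1.38. The ratio of Gjc1 to Gja1 was -0.80, -0.26 and -0.22 before and 0.34, 0.23 and 0.71 after the heartbeat started, a difference of 0.86 without overlap. For Gja4 the groups also did not overlap, with a difference of 0.43, whereas for Gjb2 they overlapped and the difference was 0.48. The exact permutation p was 0.1 for Gja4, Gja5 and Gjc1 and 0.7 for Gjb2, and over these 4 ratios the Benjamini-Hochberg adjusted values were 0.133 and 0.7. The 4 ratios share the Gja1 values, so that the lower Gja1 signal enters each of them. By themselves Gja4 and Gjc1 overlapped between groups, with log2 differences of -0.39 and 0.041. How many of all tested genes would have a ratio to Gja1 without overlap was not computed. The lack of overlap of these ratios is therefore no support of a difference beyond that of Gja1.

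**Figure D3:**
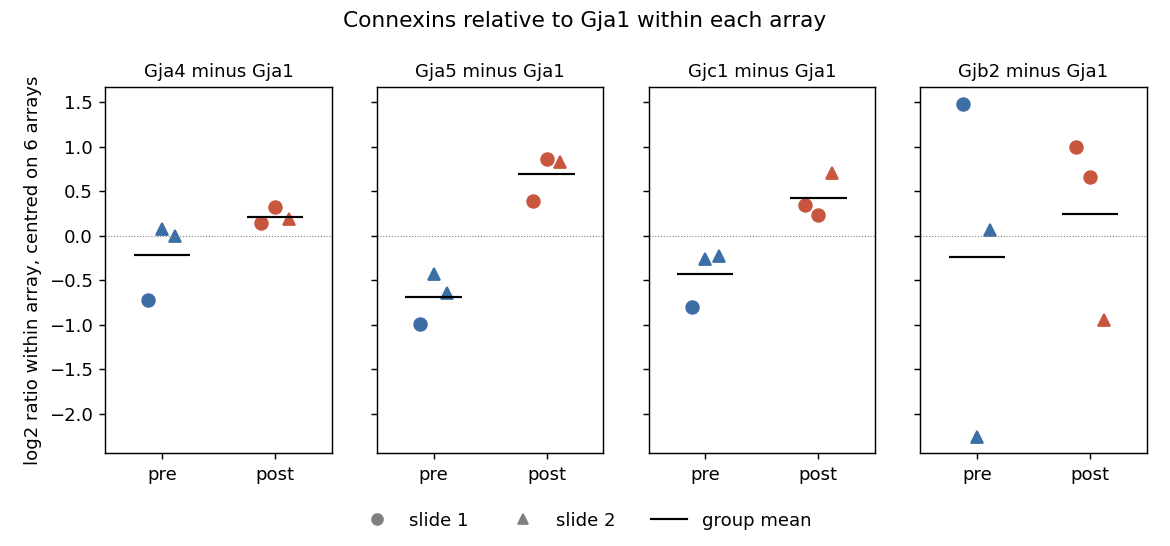
Log2 ratio of each connexin to Gja1 on the same array, centered on the mean of the 6 arrays (vertical axis), in the pre-heartbeat and post-heartbeat groups. Points are arrays with the shape giving the slide and lines are group means. The ratios of Gja4, Gja5 and Gjc1 are higher on all post-heartbeat arrays, and that of Gjb2 overlaps between groups. The lower Gja1 signal enters each ratio.

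Gjb2, an epithelial connexin, varied more between arrays of a group than between groups. Its log2 signal measured -2.16, -5.92 and -3.77 on pre-heartbeat arrays 1 to 3, and -3.46, -3.91 and -5.50 on post-heartbeat arrays 1 to 3. The highest and the lowest array were both pre-heartbeat arrays. On the lowest array 2 of the 9 spots used were well above background, so that the probe was not well above background there, while on the other arrays 9 or 10 spots were. The mean of its spots was 378 intensity units on the first pre-heartbeat array and 19.2 on the second. The log2 difference was -0.34 (SE 0.95), with a 95% interval of -2.59 to 1.91 and a limma adjusted p of 0.925. Its mean was -3.18 on slide 1 and -5.06 on slide 2, and with the slide as a block the difference was -1.09 (limma adjusted p = 0.583). It was -1.52 on slide 1 and -0.65 on slide 2. Without the first pre-heartbeat array the difference was 0.56, and without post-heartbeat array 3 it was 0.27, so that its direction turned in both cases.

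The markers of yolk sac and visceral endoderm, an epithelium next to the early heart, were on average high and low on the same arrays as Gjb2. Their mean level measured 0.67, -0.31 and 0.35 on pre-heartbeat arrays 1 to 3, and 0.30, 0.34 and -0.48 on post-heartbeat arrays 1 to 3. The first pre-heartbeat array was highest in both, and pre-heartbeat array 2 and post-heartbeat array 3 were the lowest pair in both. Most single markers were also highest on the first pre-heartbeat array, but not all. Ttr was highest on pre-heartbeat array 2 (5.46), where Gjb2 was lowest. Fgb was lowest on the first pre-heartbeat array (-0.37), where Gjb2 was highest. Of the 12 markers on the array 11 were tested, 0 of them were called or selected in either direction, and none was without an array well above background. Over the 6 arrays, which share 2 slides, Pearson's r between Gjb2 and this list was 0.956. It was 0.893 with the second heart field list and 0.790 with the ectodermal list, but -0.545 with the list of definitive endoderm and foregut. The likeness was thus not limited to the yolk sac list and was not shared by both endodermal lists. The part of these tissues in the Gjb2 signal was not tested.

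**Figure D4:**
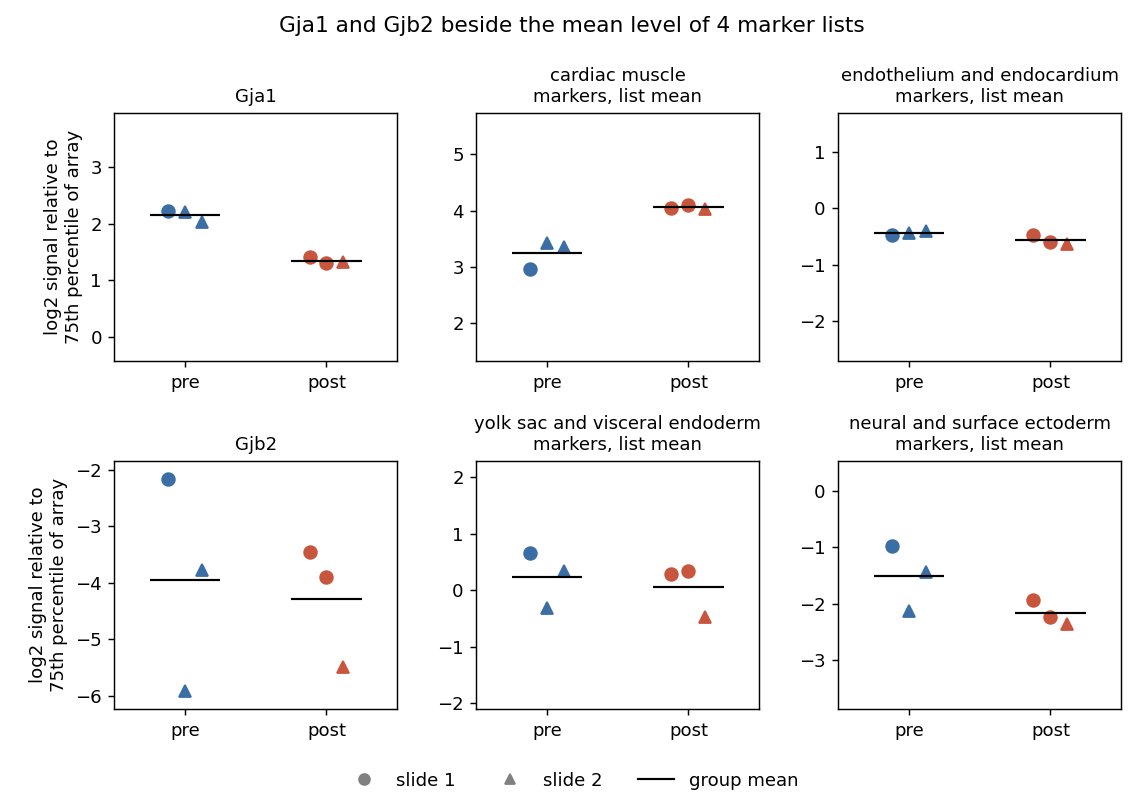
Log2 signal against each array's 75th percentile (vertical axis) of Gja1 and Gjb2 and the mean level of 4 marker lists in the pre-heartbeat and post-heartbeat groups, each point being 1 array with the shape giving the slide and the line the group mean. The cardiac muscle list is higher on all post-heartbeat arrays, at 4.03 to 4.10, and the yolk sac list is highest on the first pre-heartbeat array, as is Gjb2.

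Gjb1, the connexin of liver and peripheral nerve myelin, was near the limit of detection. It was at -6.30, -5.82 and -6.48 on the pre-heartbeat arrays and at -5.55, -6.25 and -6.87 on the post-heartbeat arrays. The probe was well above background on 2 pre-heartbeat arrays and 1 post-heartbeat array, so that it was not tested and no ratio is given. Its spots held between 15.6 and 28.4 intensity units on average.

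The rest of the connexin family gave weak signals or none above background in this tissue. Of 14 other connexins on the array, 8 had a tested probe, and 0 passed limma with or without the slide as a block, with 1 of the 8 at an unadjusted limma p under 0.05, as held for 7.01% of all tested probes. Gjb5, of skin and placenta, did not overlap between groups, with a log2 difference of -0.19. Gja3, a connexin of the lens, had a difference of -0.29, the retinal Gja10 had 0.29 and Gjd3 had 0.36, each with groups that overlapped. The median log2 difference of the 8 was -0.16, beside -0.022 over the 12707 genes tested, and 0.073 when the slide was a block. Gja6, Gjb6, Gjc3, Gjd4 and Gje1 were not well above background on any array, and Gjd2 was on 1 array.

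Pannexins are relatives in form that open to the outside of the cell as single membrane channels. Panx2 was at -5.81, -7.30 and -5.78 on the pre-heartbeat arrays and at -5.22, -5.45 and -5.60 on the post-heartbeat arrays. It did not overlap between groups, as for 5.38% of the tested probes, and its log2 difference of 0.87 had a limma adjusted p of 0.794. It was well above background on 2 pre-heartbeat arrays and all 3 post-heartbeat arrays, so that the higher group alone brought it into the tests. The lack of overlap of Panx2 is thus no support of a difference. Its value on pre-heartbeat array 2 lay under -6.77, the dimmest probe well above background there, and the difference rests in part on that value. Panx1 had a difference of 0.42 with overlap (limma adjusted p = 0.866). Panx3 was not well above background on any array.

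Genes whose proteins hold, carry or neighbor gap junctions mostly passed no test, with 20 of 21 tested. With the group alone 0 passed limma and 3 had an unadjusted limma p under 0.05, as did 7.01% of all tested probes. Cav3 and Ank2, described below, are among these 3. With the slide as a block 2 genes passed as higher, as did 1.16% of the tested probes. One of them, the muscle caveolin Cav3, was well above background on 0 pre-heartbeat and 3 post-heartbeat arrays and was at least 4.34-fold higher (limma adjusted p = 0.0577, and 0.0160 with the slide as a block). It was tested only because it was well above background in the group where it was high, so that its p-values are no support of a difference.

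Ank2, an ankyrin that anchors channels and transporters in cardiomyocytes, went the other way and was in the selection of the methods as lower. It was well above background on 3 pre-heartbeat and 0 post-heartbeat arrays and was lower by at least 2.46 fold (limma adjusted p = 0.329). It too was tested only through the group where it was high, so that its p-values and its place in the selection are no support of a difference. The bounds take the dimmest probe well above background on an array wherever the probe itself was dimmer. The junction scaffold Tjp1, which binds the tail of Cx43, had a log2 difference of -0.14, and N-cadherin, Cdh2, had 0.22. The median of the 20 genes was 0.053, and 0.14 with the slide as a block.

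For kinases and phosphatases that act on Cx43, 13 of 14 genes were tested, and 0 passed limma with or without the slide or were in the selection. None of them had an unadjusted limma p under 0.05, and the median log2 difference was 0.0065. The tyrosine kinase Src had the largest difference of this list, 0.62, with a limma adjusted p of 0.866. Of 24 transcription factors known to act on cardiac connexin genes, 21 were tested and 0 passed limma with or without the slide as a block, while 6 had an unadjusted limma p under 0.05, as did 7.01% of all tested probes. Tbx18, a regulator of the sinus venosus, was in the selection of the methods as higher. It was at -5.50, -7.18 and -5.61 before and at -4.54, -4.49 and -4.44 after the heartbeat started, with a log2 difference of 1.61 (limma adjusted p = 0.314). It was well above background on 2 pre-heartbeat and 3 post-heartbeat arrays, and its value on pre-heartbeat array 2 lay under the dimmest probe well above background there (-6.77). The difference and the selection thus rest in part on a value at background. The higher group alone brought Tbx18 into the tests. Its selection, its unadjusted p and its lack of overlap are therefore no support of a difference. Groups did not overlap for Tbx18, Tbx5 and Hopx as higher or for Sp1 and Msx2 as lower, 3 and 2 of 21 genes, beside 5.38% and 6.14% of all tested probes. Tbx5, an activator of Gja5 in the heart, had a difference of 0.45 (limma adjusted p = 0.633), and Tbx2, a repressor of chamber genes that include Gja1 and Gja5, had 1.46 with groups that overlapped (0.57, limma adjusted). The median of the list was 0.21.

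The genes most like each connexin over the 6 arrays were sought by Pearson's r of the log2 signals among 12069 genes well above background on all arrays. For Gja1 they were Lpar1, a lysophosphatidic acid receptor, with r = 0.995, Mettl25 with 0.989 and Nxpe3 with 0.985. Lpar1 had a log2 difference of -0.92, close to that of Gja1, and a limma adjusted p of 0.0806. For Gja5 they were LOC681849 with r = 0.993, the chloride channel gene Ano2 with 0.985 and Mpc1, a subunit of the mitochondrial pyruvate carrier, with 0.984. For Gja4 they were Aurkaip1, Prdx4 and Cd2bp2, with r between 0.993 and 0.995, and the nearest to Gjc1 included Abcg3l3 with 0.990 and Fcho2 with 0.981. Over only 6 arrays such values are common, as 45 genes had r over 0.95 with Gja1, 56 with Gja5, 156 with Gja4 and 54 with Gjc1. Between Gja1 and Gja5 r was -0.82.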

How the data were processed

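Total RNA was extracted by the authors from heart primordia, labeled with Cy3 and hybridized to 1-color Agilent arrays. The deposited signal is an intensity for each spot, from which Agilent Feature Extraction 10.7.3.1 had subtracted the background. The authors also deposited a ratio for each probe, made by a 75th percentile shift and division by a baseline, which served as an alternative. Control spots and outliers were left out, log2 signals were reduced by the 75th percentile of the array, and spots of a probe were averaged. A probe counted as well above background on an array when at least 0.5 of its spots were. For listed genes with more than 1 probe, the brightest probe on average was taken. 2 of the tested probes lacked a value on an array. The arrays, 3 for each group, limit the precision, and 0 spots were saturated.

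Groups were compared with limma 3.58.1 in R 4.3.3 and the data.table package, version 1.17.8, fitted over 19299 probes, with Benjamini-Hochberg adjustment and a threshold of 0.05. The selection of the methods, 1.5 fold with a Tukey HSD p under 0.05 for higher genes, was applied in both directions, with p unadjusted. Exact permutation tests enumerated 20 splits, and the procedure was tested on simulated data. The members, the lists of related genes and the markers were written from general knowledge with earlier results of these data known. Genes named are the connexins and pannexins tested, list members past a threshold and the 3 nearest profiles of each connexin. Some were added after their values were seen (Tjp1, Cdh2, Src, Tbx2, Tbx5, Hopx, Sp1, Msx2, Ttr, Fgb, Klf1, Alas2, Plvap). Of the probes, 18006 (59.3%) were matched to a RefSeq gene, and promoters were those of RefSeq on GRCr8. Alternatives were the slide or the replicate number as a block, normexp with an offset of 50, quantile normalization, other percentile and filter choices, the ratios of the authors, an intensity trend, the test of the methods with adjustment, and leaving out each array. Some listed genes are not reported here by name.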

Additional observations from a re-analysis of the deposited data

How the results depend on the processing

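The lower Gja1 signal kept its direction in all 16 alternatives and passed the limma threshold with the slide as a block alone, at -0.84, as the other settings gave an adjusted p of 0.0511 or more. Gja4 and Gja5 kept direction and side of the threshold in all alternatives. When each array was left out in turn, Gjc1 was between -0.11 and 0.16 and Gjb2 between -1.32 and 0.56, both turning without the first pre-heartbeat array (-0.11 and 0.56) and without the third post-heartbeat array (-0.087 and 0.27). The cause was not tested. The replicate numbers were used as a block because the groups share them. With this replicate block, the Gja1 adjusted p was 0.0980, 95 probes passed as higher and 49 as lower, and no connexin changed its call. Same-numbered arrays had correlations of 0.648, -0.277 and 0.494, and not every array correlated best with its own number. Between the groups, correlations were positive for arrays on the same slide and negative for arrays on different slides, and the slide was not removed. The second arrays of the 2 groups lie on different slides, so that this check cannot decide whether the numbers pair the samples.

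The number of probes past the limma threshold was 23 higher and 4 lower. It was 223 and 89 with the slide as a block, 43 and 7 with normexp, 11 and 3 with quantile normalization, 1 and 0 without a filter, 10 and 3 with the ratios of the authors, 38 and 7 with an intensity trend, and 0 and 0 by the test of the methods with adjustment, where 1319 had an unadjusted p under 0.05. Leaving out an array gave 0 to 1 in each direction. The median of the other connexins moved to 0.073 and that of the partner genes to 0.14 in the fit that had the slide as a block. The mean of several probes was not run, because each connexin had 1 probe. Gjb2 could not be given with the filter on all 6 arrays, and dim signals limit what Gjb1 can show.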
